A study of Mus musculus with 2 samples.

Results

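The interferon gamma (IFNγ) receptor signalling chain was followed through its ligand gene Ifng, the receptor chain genes Ifngr1 and Ifngr2, the kinase genes Jak1 and Jak2, the early target gene Irf1 and the feedback inhibitor gene Socs1. These 7 genes were chosen by name, with earlier results of these data known, out of 27998 genes in the count matrices. All of them were found. The data were single-cell RNA-sequencing counts from ear skin of male ICR mice, an outbred strain, aged 7 to 8 weeks. There was 1 library of healthy ear skin (control) and 1 of ear skin with allergic contact dermatitis (ACD). For ACD, the hapten DNFB was painted at 1.0% on the back for sensitization and 6 days later at 0.2% on the ear for elicitation, and the ear was taken 60 hr after that. No genotype other than the strain was given for either group, and how many ears or animals went into a library was not stated.

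IFNγ is secreted mainly by T cells and NK cells and binds a receptor built of IFNGR1, which holds the ligand and carries JAK1, and IFNGR2, which carries JAK2. The activated kinases phosphorylate a STAT protein that enters the nucleus, binds short palindromic sites and switches on genes such as Irf1, which encodes a transcription factor that in turn acts through GAAA repeats. SOCS1 binds the kinases and shuts the chain down. T cells of the Th1 type are known to keep IFNGR1 and to lose IFNGR2.

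The upstream sequences of Irf1 and Socs1 are shown because they hold the kinds of site through which the chain acts. Each line gives the 250 bases before an annotated start from RefSeq on GRCm38.p6, 5′ to 3′ on the strand of the gene, at chr11:53769764-53770013 (plus strand) for Irf1 and chr16:10785537-10785786 (minus strand) for Socs1. The capitals mark a match to TTCNNNGAA in Irf1 and, in Socs1, a pair of overlapping matches to an element of GAAA, any 2 bases and GAAA.
Irf1: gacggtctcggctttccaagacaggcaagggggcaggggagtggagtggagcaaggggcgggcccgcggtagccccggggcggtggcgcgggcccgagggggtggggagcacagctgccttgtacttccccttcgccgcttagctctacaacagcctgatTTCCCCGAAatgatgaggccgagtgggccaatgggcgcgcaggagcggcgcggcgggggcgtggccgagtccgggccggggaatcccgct
Socs1: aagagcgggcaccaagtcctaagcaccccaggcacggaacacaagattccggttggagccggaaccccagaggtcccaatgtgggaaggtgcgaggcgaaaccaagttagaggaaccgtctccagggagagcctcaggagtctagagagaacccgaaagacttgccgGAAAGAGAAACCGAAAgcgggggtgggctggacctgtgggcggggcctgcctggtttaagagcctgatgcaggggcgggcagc
The Irf1 match, TTCCCCGAA, began 90 bases before the start. The Socs1 matches, GAAAGAGAAA and GAAACCGAAA, began 83 and 77 bases before it. TTCNNNGAA, which reads the same on both strands, was found in 7.02% of 32851 promoter windows of the same length, and the GAAA element, searched on both strands, in 2.98%. RefSeq lists a further Irf1 start, whose window (chr11:53770223-53770472) held neither motif. In Ifng, TTCAGAGAA lay 249 bases before the start, and neither motif was found in the windows of Ifngr1, Ifngr2, Jak1 and Jak2. A match describes letters in a window and not binding.

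After the filter on barcodes, 12213 control cells with a median of 6850 UMIs and 11665 ACD cells with a median of 7447 UMIs were kept. Cells were put into classes by gates on marker genes, so a class name means that a cell passed that gate. A level is the sum of UMIs (unique molecular identifiers, 1 per captured transcript) of a gene in a class per 1000000 UMIs of that class, given as CPM. Since there was 1 library per condition, no difference could be tested, and every interval is a 95% interval that covers counting error only. A gene was said to rise or fall only where its level differed 2-fold or more and it had at least 50 UMIs in the class over both libraries. Of 18 classes with at least 20 cells in each library, 1.52% to 11.3% of such genes rose and 1.03% to 7.97% fell, and the median log2 ratio of all such genes lay between -0.10 and 0.09. In all lymphoid cells together that median was -0.16. Lymphoid cells made up 5.94% of control cells (726 cells) and 27.8% of ACD cells (3239 cells). CD8+ T cells (14 in control) and NK/ILC1 cells (11 in control) were too few in control for a comparison, and 290 control and 535 ACD cells with markers of several lineages, as well as 467 and 607 cells that passed no gate, were kept out of the classes. Chondrocytes of the ear cartilage were the largest class (5115 control and 3566 ACD cells) and keratinocytes were few (146 and 107). The libraries shared 47 barcodes of kept cells. Control mast cells held 18428 CPM of red cell markers against 173 in ACD, and how far this moved their levels was not tested.

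**Figure D1:**
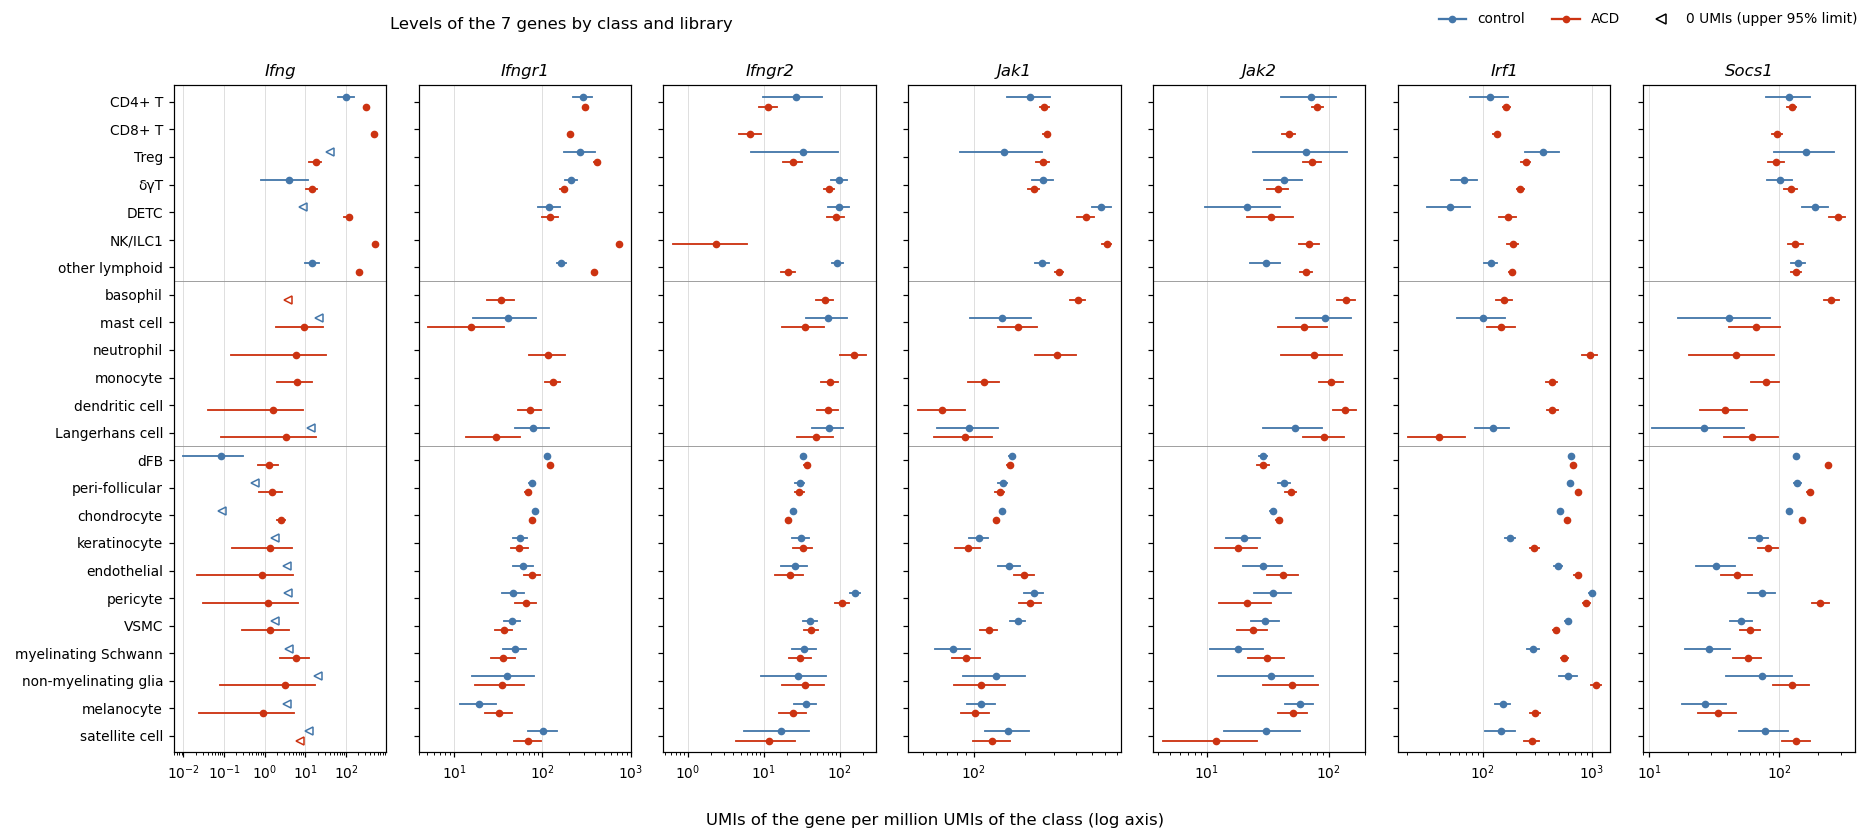
Level of each of the 7 genes (UMIs per 1000000 UMIs, log axis) in 24 classes of cells, with control in blue and ACD in red. Bars are 95% Poisson intervals, and an open triangle marks 0 UMIs at its upper limit. In ACD, Ifng was highest in NK/ILC1 and CD8+ T cells, while Ifngr2 was lowest in the same classes.

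Ifng (ENSMUSG00000055170, chr10:118441046-118445892 on GRCm38, plus strand) rose in each of the 4 classes in which it had enough UMIs, and most of its transcripts lay in lymphoid cells. In control these classes held 0 to 25 Ifng UMIs each. They thus reached the minimum of 50 UMIs only through ACD, and the count of 4 follows in part from that minimum. Over all kept cells the Ifng level was 1.52 CPM in control (140 UMIs) and 72.8 in ACD (7258 UMIs). Lymphoid cells held 74.3% of these UMIs in control (exact binomial interval 66.2% to 81.3%) and 85.6% in ACD (84.8% to 86.4%). Within ACD, 39.0% lay in CD8+ T cells, 19.2% in CD4+ T cells and 12.4% in NK/ILC1 cells, and 944 of the UMIs lay in lymphoid cells of no finer gate (other lymphoid cells). Cells of mixed lineage held another 8.89% and cells without a gate 3.53%.

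Both the share of lymphoid cells and the Ifng level of the pooled lymphoid cells were higher in ACD. The level in all lymphoid cells was 31.1 CPM in control and 284 in ACD (log2 ratio 3.19, 2.91 to 3.49), and 4.15% of the genes of lymphoid cells rose 2-fold or more. The pool held 14 CD8+ T and 11 NK/ILC1 cells in control and 674 and 313 in ACD. In CD8+ T cells Ifng had a log2 ratio of 0.81 (0.16 to 1.54), from 282 and 494 CPM. In NK/ILC1 cells it was -0.25 (-0.75 to 0.29), from 631 and 530 CPM. The part of makeup in the pooled ratio was not tested. In CD4+ T cells Ifng went from 102 to 303 CPM, a log2 ratio of 1.56 (0.97 to 2.23), where 8.42% of genes rose. In other lymphoid cells it went from 14.9 to 214, a log2 ratio of 3.84 (3.27 to 4.48), where 4.13% of genes rose. Dendritic epidermal T cells (DETC), the γδ T cells of mouse epidermis, had no Ifng UMI in 116 control cells and a level of 116 CPM in ACD. With the 3 UMIs that a count of 0 allows, this was at least 16.4-fold higher, and 4.36% of DETC genes rose. The markers of NK/ILC1 cells went from 40.1 to 297 CPM in the same DETC gate and from 24.5 to 499 CPM in other lymphoid cells. Their part in these results, and in the Ifngr1 and Jak2 values of other lymphoid cells given further on, was not tested.

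Within ACD the Ifng level was highest in NK/ILC1 and CD8+ T cells. NK/ILC1 cells had 530 CPM (496 to 566) and CD8+ T cells 494 (476 to 512), which did not differ beyond counting error. CD4+ T cells, other lymphoid cells and DETC came next, each below the class before it by more than counting error. Regulatory T (Treg) cells with 17.9 and dermal γδ T (δγT) cells with 14.5 did not differ from each other. No Ifng UMI was found in 222 ACD basophils. In the small control sets, 14 CD8+ T cells had 19 Ifng UMIs (282 CPM, 169 to 440) and 11 NK/ILC1 cells had 34 (631 CPM, 437 to 882), so Ifng transcripts were already present in the few such cells of healthy skin. At a fixed depth of 2000 UMIs per cell, an Ifng UMI was seen in 51.9% of 308 ACD NK/ILC1 cells (exact binomial interval 46.2% to 57.6%), 41.8% of 667 CD8+ T cells (38.1% to 45.7%) and 27.9% of 627 CD4+ T cells (24.4% to 31.6%). Without thinning these shares were 70.6%, 67.4% and 44.5%. In chondrocytes, which are not known to make IFNγ, the thinned share was 0.396% of 3537 cells (1.71% unthinned), and the shares above were far over it.

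The level in chondrocytes themselves went from 0 UMIs in 5115 control cells to 88 UMIs in 3566 ACD cells, at 2.53 CPM. This was at least 35.6-fold higher by the same bound, in a class in which 1.82% of genes rose. In dFB, the dermal fibroblasts, there were 2 UMIs in control (0.0826 CPM) and 15 in ACD (1.25 CPM), a log2 ratio of 3.92 (1.82 to 7.09). Lymphoid markers in these chondrocytes went from 6.53 to 23.3 CPM, against 4419 in ACD lymphoid cells. Per 100 lymphoid marker UMIs, Ifng had 10.9 UMIs in ACD chondrocytes (8.62 to 13.6), 9.46 in CD8+ T cells, 16.4 in NK/ILC1 cells, 6.71 in CD4+ T cells and 6.43 in all lymphoid cells. The chondrocyte ratio lay above that of all lymphoid cells and between those of CD8+ T and NK/ILC1 cells. The gates kept cells with several lymphoid markers out of the chondrocytes, but not cells with Ifng. This ratio therefore cannot be compared evenly between chondrocytes and lymphoid cells. The part of lymphoid transcripts in the chondrocyte value was not tested.

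**Figure D2:**
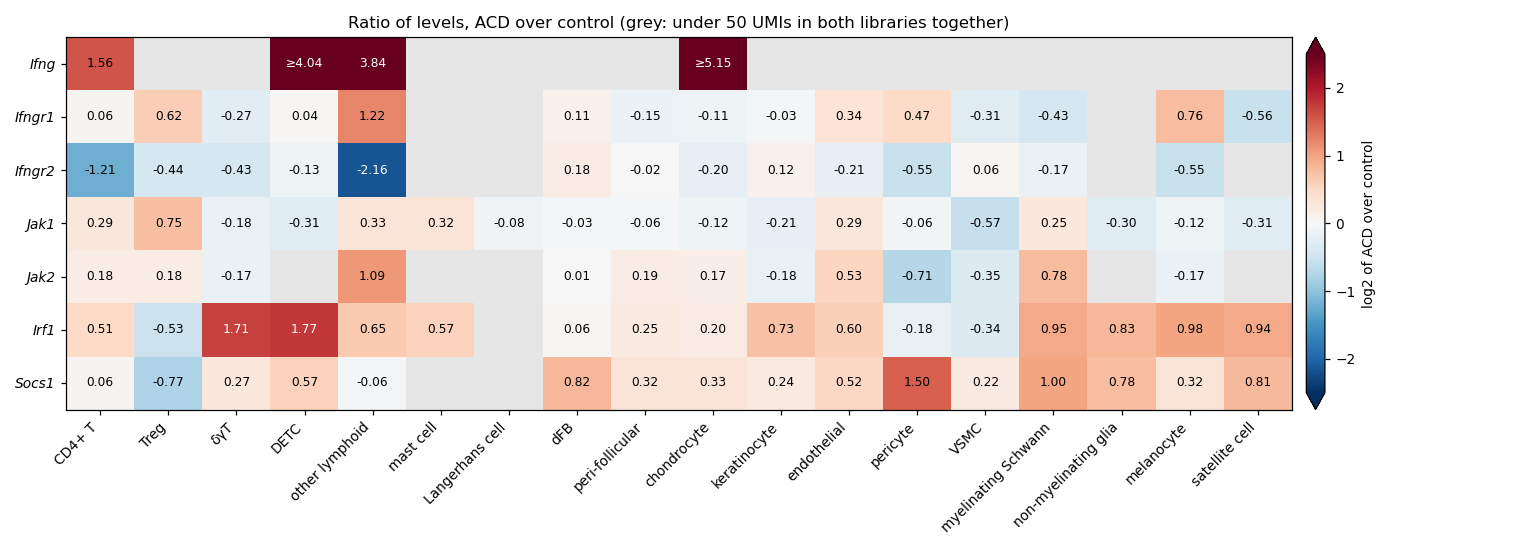
Heat map of the log2 ratio of the level in ACD over that in control for the 7 genes (rows) in the 18 compared classes (columns), with fields under 50 UMIs in grey. Red fields are higher in ACD and blue fields lower. The highest fields are Ifng in chondrocytes, DETC and other lymphoid cells, the Jak1 row runs from -0.57 to 0.75, and the lowest field is Ifngr2 in other lymphoid cells at -2.16.

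Ifngr1 (ENSMUSG00000020009, chr10:19591949-19610229, plus strand), the ligand-binding chain, was found in every compared class and rose in 1 of the 15 in which it had enough UMIs. That class was other lymphoid cells, in which it went from 164 to 381 CPM, a log2 ratio of 1.22 (1.03 to 1.40), where 4.13% of genes rose. In Treg cells it was 271 in control and 416 in ACD (log2 ratio 0.62, 0.04 to 1.25). In CD4+ T cells the levels of 290 and 302 were within counting error of each other. In resident cells it moved little. The dFB had 114 in control and 123 in ACD (log2 ratio 0.11, 0.02 to 0.20), and chondrocytes had 83.6 and 77.4, a log2 ratio of -0.11 (-0.18 to -0.04).

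Lymphoid cells were at the top of the Ifngr1 order in both conditions. In ACD the level was 745 CPM (704 to 787) in NK/ILC1 cells, 416 in Treg cells, 381 in other lymphoid cells, 302 in CD4+ T cells, 206 in CD8+ T cells and 175 in δγT cells, each above the next by more than counting error. Below them, monocytes, DETC, dFB and neutrophils, from 133 to 117, did not each differ from the next class, and the lowest level was 15.8 in mast cells. Among control classes with at least 20 cells the order ran from 290 in CD4+ T cells to 19.2 in melanocytes.

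Ifngr2 (ENSMUSG00000022965, chr16:91547072-91565623, plus strand), the signalling chain of the receptor, rose in no compared class and fell in 2 of the 14 in which it had enough UMIs. Other lymphoid cells had 93.2 CPM in control and 20.8 in ACD (log2 ratio -2.16, -2.55 to -1.78), where 4.46% of genes fell. In CD4+ T cells it was 26.7, from 6 UMIs, and 11.5, from 53 UMIs, a log2 ratio of -1.21 (-2.43 to 0.30), where 6.64% of genes fell, and this interval includes no change. With stricter gates that ratio was -0.999, just under 2-fold. In all lymphoid cells together it was 86.0 and 22.6, a log2 ratio of -1.93 (-2.14 to -1.72), where 8.58% of genes fell. The makeup of these cells moved with the result. In other lymphoid cells the CD8 genes went from 0.597 to 31.9 CPM beside the NK/ILC1 markers given above, while the CD3 genes stood at 1726 and 1578. Their part in the lower Ifngr2 was not tested.

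No other compared lymphoid class passed 2-fold. In Treg cells Ifngr2 was 32.5, from 3 UMIs, and 24.1 (log2 ratio -0.44, -2.07 to 1.89). In δγT cells it was 97.8 in control and 72.4 in ACD (log2 ratio -0.43, -0.83 to -0.03). In DETC it was 96.7 and 88.1, a log2 ratio of -0.13 (-0.73 to 0.48). In resident cells it was 32.9 and 37.3 in dFB, 24.0 and 20.9 in chondrocytes, and 158 and 108 in pericytes, the contractile cells around capillaries. The log2 ratio in pericytes was -0.55 (-0.94 to -0.17), so no resident class passed 2-fold.

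The 3 classes with the most Ifng in ACD had the least Ifngr2 of the 24 classes. NK/ILC1 cells had 4 UMIs in 313 cells, or 2.36 CPM (0.644 to 6.05), CD8+ T cells 6.63 (4.69 to 9.10) and CD4+ T cells 11.5 (8.64 to 15.1), and these 3 levels differed from each other beyond counting error, though CD4+ T cells did not differ from satellite cells (11.9). Other lymphoid cells with 20.8 and Treg cells with 24.1 lay at the level of endothelial cells and chondrocytes. δγT cells with 72.4 and DETC with 88.1 were among the upper classes, whose highest levels were 108 in pericytes and 152 (99.1 to 222) in neutrophils. NK/ILC1 cells thus stood highest for Ifngr1 and lowest for Ifngr2. At 2000 UMIs per cell, Ifngr2 was seen in 0.325% of 308 ACD NK/ILC1 cells (1.28% unthinned) and in 51 of 392 δγT cells (35.1% of cells unthinned), and both receptor genes together in 0.325% and 2.55% of them.

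**Figure D3:**
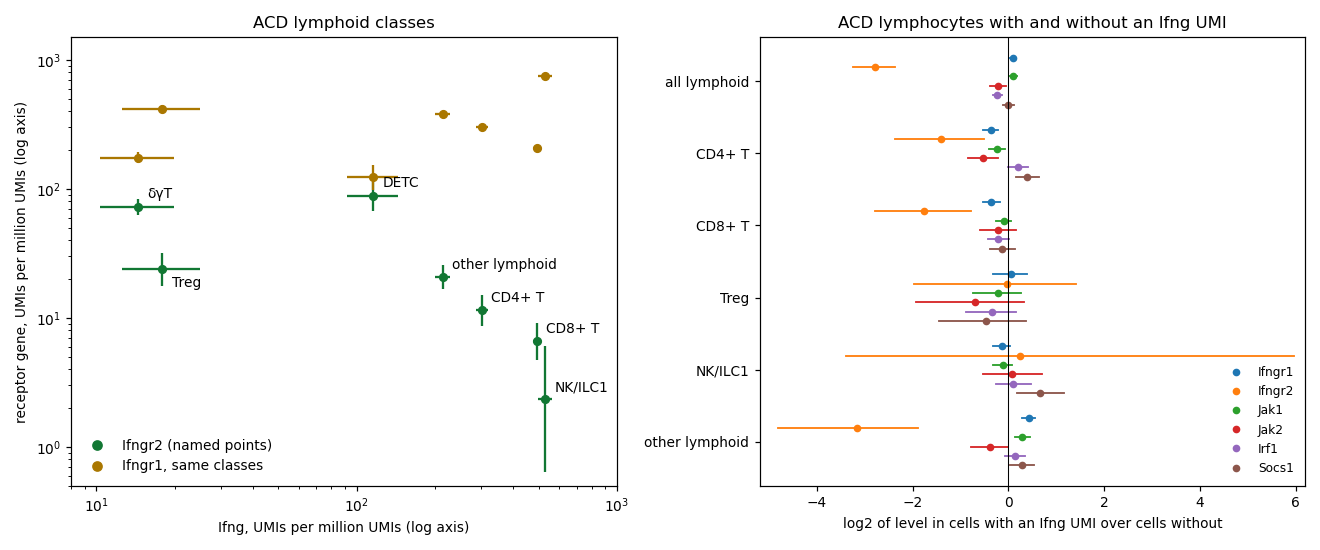
Left, levels of Ifngr1 (amber) and Ifngr2 (green) against the level of Ifng in 7 lymphoid classes of ACD, in UMIs per 1000000 UMIs on log axes with 95% intervals. Right, log2 ratio of the level of 6 genes in ACD lymphoid cells with an Ifng UMI over those without, by class. The 3 classes with the most Ifng, NK/ILC1, CD8+ T and CD4+ T cells, have Ifngr2 levels of 2.36, 6.63 and 11.5, and Ifngr2 has the lowest ratio in all lymphoid cells, at -2.80.

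Ifngr2 was also compared between cells of the ACD library with and without an Ifng UMI. Among ACD lymphoid cells, the 1223 cells with an Ifng UMI had an Ifngr2 level of 5.17 CPM and the 2016 cells without had 35.9, a log2 ratio of -2.80 (-3.25 to -2.37). The difference was smaller but kept its direction within CD4+ T cells (6.39 and 16.9, log2 ratio -1.40, -2.37 to -0.51) and within CD8+ T cells (3.92 and 13.4, log2 ratio -1.77, -2.80 to -0.78). In other lymphoid cells it was 3.34 and 29.8, a log2 ratio of -3.16 (-4.82 to -1.88). In NK/ILC1 cells it was 2.47 and 2.09, from 3 UMIs and 1 UMI (log2 ratio 0.24, -3.40 to 5.96), and in Treg cells 23.5 and 24.1 (log2 ratio -0.04, -1.98 to 1.42), so the difference was not seen in every class. Over all lymphoid cells Ifngr1 had 327 CPM with an Ifng UMI and 307 without, but its log2 ratio was -0.37 in CD4+ T cells (-0.52 to -0.21), -0.36 in CD8+ T cells (-0.53 to -0.18) and 0.42 in other lymphoid cells (0.28 to 0.56). Socs1 was 123 in both pooled sets, while its log2 ratio was 0.40 in CD4+ T cells (0.15 to 0.64), 0.67 in NK/ILC1 cells (0.19 to 1.17) and -0.13 in CD8+ T cells (-0.40 to 0.14). Tbx21, which encodes the transcription factor T-bet of type 1 lymphocytes, was 61.0 with an Ifng UMI and 24.1 without, a log2 ratio of 1.34 (1.14 to 1.55). Cells with an Ifng UMI were deeper, with a median of 6205 UMIs against 5170, and the part of depth and of class makeup in these ratios was not tested beyond the values within classes.

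Jak1 (ENSMUSG00000028530, chr4:101152367-101265282, minus strand), the kinase of the Ifngr1 side, rose or fell in none of the 18 compared classes, in all of which it had enough UMIs. Its log2 ratios ran from -0.57 (-0.80 to -0.34) in vascular smooth muscle cells (VSMC), with 182 CPM in control and 123 in ACD, to 0.75 (-0.01 to 1.63) in Treg cells, with 152 and 255. In dFB the levels were 168 and 164. The highest level was 568 in DETC in control, and in ACD 610 (573 to 648) in NK/ILC1 cells, followed by 460 in DETC.

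Jak2 (ENSMUSG00000024789, chr19:29251828-29313080, plus strand), the kinase of the Ifngr2 side, rose in 1 of the 13 classes in which it had enough UMIs. In other lymphoid cells it was 30.5 in control and 65.0 in ACD (log2 ratio 1.09, 0.66 to 1.55), where 4.13% of genes rose. When the gates asked for 1 more marker this ratio was 0.90. In mononuclear phagocytes, pooled because macrophages, monocytes and dendritic cells were too few apart, it was 58.0 and 110, a log2 ratio of 0.92 (0.36 to 1.53). Langerhans cells were 31 of 68 of these cells in control and 23 of 206 in ACD, and the part of this shift in the values of phagocytes was not tested. The highest ACD levels were 140 in basophils, 135 in dendritic cells and 105 in monocytes, of which neighbours in this order did not differ beyond counting error. In dFB it stood at 28.8 and 29.0.

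Irf1 (ENSMUSG00000018899, chr11:53770014-53778374, plus strand) was higher in ACD in most classes, though mostly by less than 2-fold. Its interval lay above 0 in 12 of the 17 classes in which it had enough UMIs and below 0 in 2, and the median log2 ratio was 0.60. The share of all genes with such intervals was not counted. At high counts an interval leaves out 0 at small differences, such as 0.06 (0.02 to 0.09) in dFB. Irf1 rose in 2 classes, both γδ T cells. In δγT cells it was 67.8 in control and 222 in ACD (log2 ratio 1.71, 1.30 to 2.15), where 3.07% of genes rose. In DETC it was 49.5 and 169, a log2 ratio of 1.77 (1.09 to 2.52), where 4.36% of genes rose. With Leiden clusters in place of gates these ratios were 0.94 and 0.21, so neither rise passed 2-fold there. The DETC gate held more markers of δγT cells in ACD (172 CPM) than in control (16.5), and their part was not tested.

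Among other cells, Irf1 had log2 ratios of 0.98 in melanocytes (153 and 303), 0.95 in myelinating Schwann cells (290 and 560), 0.83 in non-myelinating glia (611 and 1087), 0.73 in keratinocytes (179 and 298) and 0.60 in endothelial cells (492 and 744). In mononuclear phagocytes it rose from 143 to 373, a log2 ratio of 1.38 (1.03 to 1.75), where 7.67% of genes rose. Langerhans cells, a part of this pool, went the other way, with 124 from 33 UMIs and 39.5 from 12 UMIs. Their log2 ratio was -1.65 (-2.74 to -0.66), on fewer UMIs than a call needs. Among other classes with high levels in control, dFB had 643 and 668, a log2 ratio of 0.06 (0.02 to 0.09). Pericytes had 1010 and 889, a log2 ratio of -0.18 (-0.32 to -0.04), and VSMC had 599 and 473, a log2 ratio of -0.34 (-0.46 to -0.22). In ACD the order ran from 1087 in non-myelinating glia, which did not differ from 963 in neutrophils, down to 39.5 in Langerhans cells. Lymphoid classes stood in its lower part, between 134 in CD8+ T cells and 247 in Treg cells.

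Socs1 (ENSMUSG00000038037, chr16:10782240-10785536, minus strand), the feedback inhibitor, was higher in ACD mainly in resident cells among the compared classes, and also in pooled phagocytes. Its interval lay above 0 in 7 of the 16 classes in which it had enough UMIs and below 0 in none, and the median log2 ratio was 0.32. How many of all genes had such intervals was not counted. It rose in pericytes, from 74.1 to 209 CPM, 2.82-fold, where 3.05% of genes rose. In dFB it was 135 in control and 239 in ACD (log2 ratio 0.82, 0.75 to 0.90). All marker-gated dFB subsets were higher, with log2 ratios of 1.04 in preadipocyte dFB (137 and 282), 0.85 in Pi16+ dFB (119 and 214) and 0.68 in reticular or papillary dFB (139 and 222).

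In myelinating Schwann cells Socs1 was 28.8 and 57.5, just under 2-fold. Chondrocytes had 121 and 151 and peri-follicular fibroblasts 138 and 173, with log2 ratios of 0.33 (0.27 to 0.38) and 0.32 (0.20 to 0.45). In DETC, the class with the highest level in both conditions, it was 191 and 283, a log2 ratio of 0.57 (0.19 to 0.96). DETC did not differ beyond counting error from Treg cells (163) in control or from basophils (254) in ACD. All lymphoid cells together had 137 and 123, a log2 ratio of -0.16 (-0.30 to -0.01), the same as the median of all genes in those cells. In mononuclear phagocytes Socs1 rose from 29.0, on 15 UMIs, to 63.1, a log2 ratio of 1.12 (0.34 to 2.01), where 7.67% of genes rose. Thus in dFB Socs1 was higher while Irf1 was nearly level.

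Known targets of the chain rose far more widely than its members. The target list, like the other gene lists below, was chosen with earlier results of these data known, so its counts are a description. Of 21 listed targets, 18 had enough UMIs in dFB, where 15 rose and none fell, with a median log2 ratio of 3.19, against 3.29% of all dFB genes that rose and 1.38% that fell. Among them were the T cell chemokine gene Cxcl9, from 2.35 to 560 CPM (log2 ratio 7.89, 7.52 to 8.30), and the immunity-related GTPase genes Iigp1, from 2.69 to 397 (7.21, 6.85 to 7.58), and Igtp, from 4.46 to 91.0 (4.35, 4.06 to 4.65). The chemokine gene Cxcl10 went from 27.9 to 383 (3.78, 3.66 to 3.90). Lymphoid cells followed the same direction, with 14 of 18 targets risen, none fallen and a median of 1.86, against 4.15% of all lymphoid genes that rose and 8.58% that fell. Irf8, a transcription factor gene, went there from 8.06 to 122 (3.93, 3.38 to 4.53) and the guanylate-binding protein gene Gbp3 from 2.99 to 41.3 (3.79, 2.90 to 4.85). Cxcl9 and Iigp1 had no UMI in control lymphoid cells and levels of 40.9 and 29.0 in ACD, at least 45.7-fold and 32.3-fold higher. The ACD level of Cxcl9 in dFB was 560, and the part of transcripts from other cells in the lymphoid value was not tested.

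**Figure D4:**
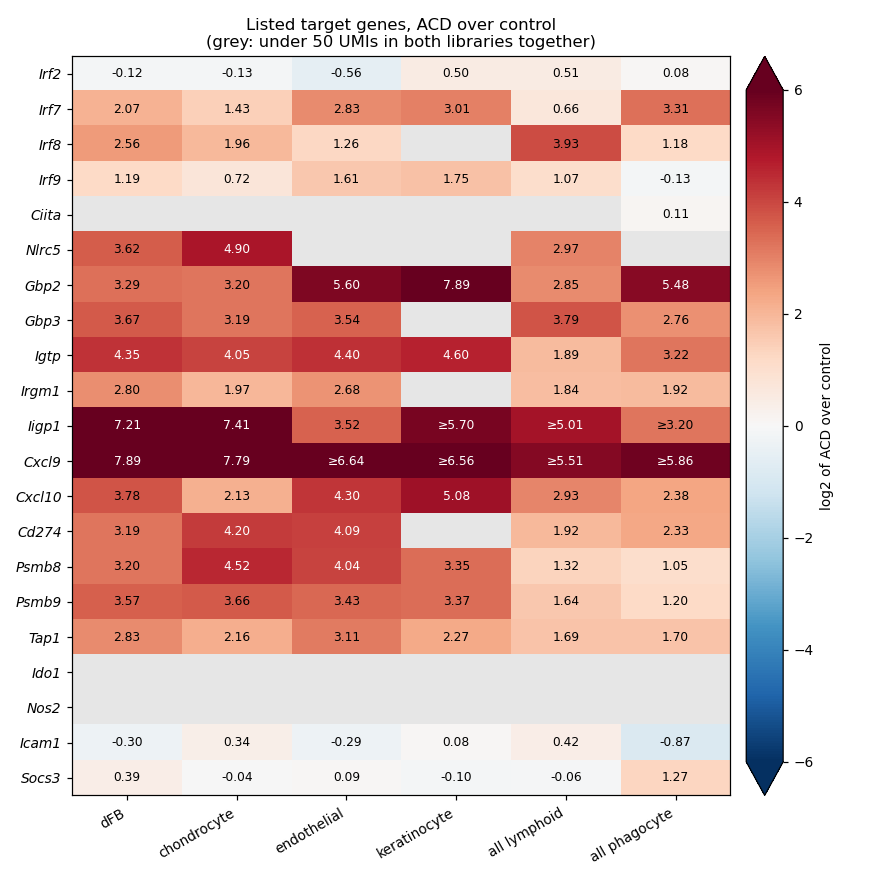
Heat map of the log2 ratio of the level in ACD over that in control for 21 listed targets of the chain (rows) in 6 classes (columns), with fields under 50 UMIs in grey. Of the targets with enough UMIs, between 10 and 15 rose per class and none fell.

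The other classes gave like counts. In chondrocytes 14 of 18 targets rose (median 2.68) and none fell, against 1.82% and 1.06% of all genes. Cxcl9 in ACD chondrocytes had 20.9 CPM against 560 in ACD dFB, and the part of transcripts from other cells in the chondrocyte values was not tested. In endothelial cells 14 of 17 rose (median 3.43) and none fell, against 3.72% and 3.55% of all genes. In keratinocytes 10 of 13 rose (median 3.35) and none fell, against 2.22% and 1.13% of all genes. In mononuclear phagocytes 14 of 18 rose (median 1.81) and none fell, against 7.67% and 4.2% of all genes. Targets thus rose in classes whose Irf1 was nearly level, such as dFB and chondrocytes, as well as in those where it was higher. Many of these genes are also targets of type I interferons, so their levels do not tell the interferons apart.

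Some genes that drive Ifng rose in lymphoid cells and others in dFB. Of 13 listed genes, 3 of the 8 with enough UMIs rose in lymphoid cells, where 4.15% of all genes rose. These were Eomes, which encodes a T-box factor and was also a marker of the NK/ILC1 gate (0.896, from 3 UMIs, to 40.5, log2 ratio 5.50, 3.95 to 7.78), Stat4, the signal carrier of IL-12 (12.2 to 72.9, 2.57, 2.13 to 3.06), and Tbx21 (10.7 to 40.1, 1.90, 1.42 to 2.42). The IL-18 receptor gene Il18rap stood at 51.1 and 95.1 (0.90). In dFB, the cytokine genes Il15 (2.89 to 8.52, 1.56, 1.11 to 2.02), Il12a (1.90 to 4.68, 1.30, 0.71 to 1.90) and Il18 (3.22 to 6.94, 1.11, 0.64 to 1.57) rose, 3 of the 4 with enough UMIs, against 3.29% of all genes.

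Few inhibitors other than Socs1 and few other receptor genes passed 2-fold in dFB and lymphoid cells. Of 10 listed brakes, 1 of 9 with enough UMIs rose in dFB, where 3.29% of all genes rose. This was Usp18, which restrains type I interferon receptors (2.48 to 6.10, log2 ratio 1.30, 0.79 to 1.82). Socs3 in dFB had 670 and 879 (0.39). None of 9 rose or fell in lymphoid cells, where Cish had 194 and 116 (-0.73) and Socs2 79.7 and 50.9 (-0.65). Of 4 other kinase and STAT genes, none of 3 with enough UMIs rose in dFB, with Stat2 at 17.4 and 30.3 (0.81). In lymphoid cells 1 of 4 rose, where 4.15% of all genes rose. This was Jak3, the kinase of the common cytokine receptor chain (8.06 to 21.2, log2 ratio 1.40, 0.84 to 2.01). Of 4 genes of other interferon receptors, the 3 with enough UMIs neither rose nor fell in dFB or in lymphoid cells, and Ifnar2, a chain of the type I receptor, stood at 66.4 and 80.9 in dFB and at 37.9 in both lymphoid sets. In mononuclear phagocytes 2 of 7 brakes rose, Ptpn2 (21.3 to 43.5, log2 ratio 1.03, 0.12 to 2.09) and Socs3 (172 to 415, log2 ratio 1.27), and the IL-10 receptor gene Il10rb fell (61.8 to 26.1, -1.24, -1.92 to -0.55). Of all genes in these phagocytes 7.67% rose and 4.2% fell. Usp18 rose in chondrocytes too, from 1.56 to 5.66 (1.86, 1.45 to 2.28), where 1.82% of all genes rose.

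The genes whose pattern was most like each member were searched among 9997 genes over 43 sums of a class in a library, as Pearson correlations of log2 levels. These are descriptions, since the sums share libraries and depth. For Ifng they were Tbx21 (0.96), the death ligand gene Fasl (0.95) and the NK receptor gene Klrc2 (0.93). For Ifngr1 they were Ssh2 (0.85), Jakmip1 (0.81) and the lymphoid phosphatase gene Ptpn22 (0.81). For Ifngr2 the highest was S100a11, at 0.57, so no gene followed its order closely. Jak1 was most like Herc1 (0.76), Jak2 like Dapp1 (0.76), Irf1 like Tpst1 (0.80) and Socs1 like Pld3 (0.65).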

How the data were processed

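Ear skin cells of 1 control and 1 ACD mouse library were released with collagenase D and DNase1 and run on the 10x Genomics 3′ platform. The authors deposited, per library, a table of raw UMI counts per gene and barcode, without normalization. The submitters' processing notes name Cell Ranger 3.1.0 and mm10. The control library held 12895 barcodes and 99037698 UMIs and the ACD library 13163 barcodes and 126566870 UMIs, and 0 other columns of per-sample values were present. Intervals cover counting error only.

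A barcode was kept where it held over 200 but below 5000 genes, no more than 25000 UMIs and less than 8% of mitochondrial UMIs, the UMI limit of the study's methods being read as an upper limit. A cell entered a lineage with UMIs of 2 to 5 different markers. These thresholds were set after the cells had been seen. The members and gene lists were chosen with earlier results of these data known. Named are all members, at most 4 genes per list with the largest log2 ratios in dFB and in lymphoid cells, and the genes of most similar pattern. In the search for similar patterns 10 CPM (UMIs per 1000000 UMIs) were added, gate markers were left out, and genes needed 200 UMIs and an entry in the RefSeq promoter table. Results for some genes of the pathway are not reported here.

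Ratios carry conditional binomial intervals, levels exact Poisson intervals and shares Clopper-Pearson intervals. Shares of cells used cells thinned to 2000 UMIs. Scrublet, run in scanpy, called 4.59% of control and 3.36% of ACD cells as doublets, which were kept and removed in an alternative. Other alternatives were the barcode filter, stricter gates, Leiden clusters (resolution 2, 30 principal components, 20 neighbours), the mean over cells, median-of-ratios scaling, thinning, a fold of 1.5 and a minimum of 20 UMIs. The motif of GAAA, any 2 bases and GAAA was added after the sequence had been seen. Statistics were tested on simulated data. Positions come from GENCODE M21 on GRCm38. Python 3.11.15, numpy 2.4.6, scipy 1.17.1, pandas 2.3.3, scanpy 1.11.5, leidenalg 0.10.2 and matplotlib 3.10.9 were used.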

Additional observations from a re-analysis of the deposited data

Results flagged for a closer look

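For 4 members the log2 ratio of ACD over control had opposite signs in a pair of classes, with both intervals clear of 0. Each pair held the highest and the lowest such ratio of the member. How many of all genes have such a pair was not counted. The intervals of Ifngr1 in δγT cells (-0.53 to -0.003) and Ifngr2 in dFB (0.008 to 0.35) came close to 0. These differences were not tested, nor was the part of the changed makeup of other lymphoid cells in them. For Ifngr1 the ratio was 1.22 in other lymphoid cells and -0.27 in δγT cells, a difference of 1.49. For Ifngr2 it was 0.18 in dFB and -2.16 in other lymphoid cells, a difference of 2.34. For Jak1 it was 0.33 in other lymphoid cells and -0.57 in VSMC, a difference of 0.90. For Irf1 it was 1.77 in DETC and -0.34 in VSMC, a difference of 2.11.

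Ifng was also found in barcodes and cells that no comparison used. Barcodes outside the filter had 0 Ifng UMIs in control (682 barcodes) and 1910 in ACD (1498 barcodes), a level of 71.0 CPM that was at least 162-fold higher. Of these ACD barcodes, 617 had over 25000 UMIs and 733 had at least 8% mitochondrial UMIs. In cells of mixed lineage Ifng was 7.10 in control and 88.8 in ACD, a log2 ratio of 3.65. In cells without a gate it was 3.78 and 82.2, 21.7-fold higher, and the NK/ILC1 markers there stood at 44.1 and 598 CPM.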

How the results depend on the processing

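Every ratio rests on 1 library per condition, so no replicate could be left out. No paired analysis was possible because each condition is 1 library with the number 1 only and no test was run. Of 767 ratios of a member in a class under an alternative, 63 lay outside the interval of the reported value. These leave out the ratios in dFB and Ifng in all lymphoid cells. A change of direction was counted only among the 90 ratios whose reported value was past 2-fold, and 0 of them changed direction. Of these 90, 4 dropped under 2-fold. They were Ifngr2 in CD4+ T cells (-0.999) and Jak2 in other lymphoid cells (0.90) with stricter gates, and Irf1 in δγT cells (0.94) and in DETC (0.21) with Leiden clusters. The causes were not tested, save that thinning leaves fewer UMIs and a fold of 1.5 or a minimum of 20 UMIs admits more classes. Low counts limit Ifng outside lymphoid cells and Ifngr2 in NK/ILC1, CD8+ T and control CD4+ T cells.

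The number of classes in which a member rose moved as follows. For Ifng (4) it was 2 with thinned cells. For Ifngr1 (1) it was 0 with Leiden clusters, 2 with the mean over cells and 3 at 1.5-fold. For Jak1 (0) it was 1 at 1.5-fold. For Jak2 (1) it was 0 with stricter gates and with Leiden clusters, and 2 with the mean over cells and at 1.5-fold. For Irf1 (2) it was 4 with the stricter barcode filter, with Scrublet calls removed, with the mean over cells and with median-of-ratios scaling, 5 with stricter gates, 1 with Leiden clusters and 9 at 1.5-fold. For Socs1 (1) it was 3 with the stricter barcode filter, 5 at 1.5-fold, and 2 with stricter gates, Scrublet calls removed, thinned cells, the mean over cells, median-of-ratios scaling and a minimum of 20 UMIs.

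In dFB, thinning gave log2 ratios of 0.011 for Ifngr1, -0.20 for Jak1 and 0.72 for Socs1, and Irf1 was 0.10 both with Leiden clusters and with median-of-ratios scaling. The lymphoid share of Ifng UMIs in ACD was 81.4% over all deposited barcodes, 80.9% with stricter gates, 94.4% with Leiden clusters and 89.3% with Scrublet calls removed. In control it was 93.6% with Leiden clusters and 84.1% with Scrublet calls removed.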

Other observations

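Among the dFB subsets, Ifngr1 and Ifngr2 differed little between conditions while Socs1 was higher in each. Ifngr1 was 126 CPM in control and 143 in ACD in preadipocyte dFB and 110 and 126 in Pi16+ dFB. Irf1 was nearly level in the 3 named subsets, with log2 ratios between -0.05 and 0.09, and had 570 and 775 in the remaining dFB, a log2 ratio of 0.44 (0.34 to 0.55).

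In myeloid classes with too few control cells for a comparison, the ACD levels of Irf1 were 436 in dendritic cells, 428 in monocytes and 156 in basophils. The 45 ACD B cells had 117 CPM of Ifngr1, 88.1 of Ifngr2 and 323 of Irf1.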
